A study of Mus musculus with 9 samples.

Results

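The hemoglobin genes followed here were the 4 adult globin genes Hba-a1, Hba-a2, Hbb-bs and Hbb-bt, together with Alas2, whose enzyme makes the first intermediate of heme in red cell precursors. They were taken by gene identifier from the count tables of adult midbrain, where these 5 genes were 5 of 47729 rows, and all 5 passed the filter on low counts. The tissue was midbrain dissected at 180 days (6 months) of age from mice on a C57/Bl6 background. All animals carried Pitx3-Cre/+ and the Rosa-lox-stop-lox-Yfp reporter, and they differed in Dot1l, the H3K79 methyltransferase: Dot1l(+/+), Dot1l(fl/+) and Dot1l(fl/fl). There were 3 libraries per genotype, each a pool of 3 animals per the methods of the study. Cre was driven from the Pitx3 locus in post-mitotic dopaminergic precursors and removed exon 5 of Dot1l, so that the dissected tissue also held many cells without recombination, and the Dot1l(+/+) controls carried Cre as well. The design text of the series speaks of sorted embryonic cells, whereas the title and the extraction text of each library give dissected tissue at the adult age.

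Hemoglobin carries oxygen as a complex of α- and β-globin chains, each holding a heme group. Mice carry a pair of adult α-globin genes, Hba-a1 and Hba-a2, and this strain carries a pair of adult β-globin genes, Hbb-bs and Hbb-bt. Red cells of mammals keep globin mRNA for some time after they have lost their nucleus, and globin mRNA has also been described in dopaminergic neurons of the substantia nigra, in astrocytes and in oligodendrocytes. Dissected brain that still contains blood in its vessels therefore holds globin mRNA from more than one possible source, and in bulk tissue fewer cells of a type and less RNA per cell cannot be told apart.

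The promoters are shown first because the genes are read together below and because they hold the motifs by which erythroid promoters are usually described. Sequences and positions are those of RefSeq on GRCm38.p6, and all 5 genes had an entry. The stretches run 5′ to 3′ toward the gene and end before the first annotated exon base. They are chr11:32296242-32296488 on the plus strand for Hba-a2 (247 bases), chr7:103813997-103814173 on the minus strand for Hbb-bt (177 bases) and chrX:150547167-150547374 on the plus strand for Alas2 (208 bases). Capitals mark matches on either strand of GATAA, the core of the GATA-factor motif, which reads TTATC on the other strand. They also mark CACCC, the box bound by Krüppel-like factors, which reads GGGTG on the other strand. The other motifs are CCAAT, read as ATTGG on the other strand, and the TATA-like motif ATATAA with its reverse complement.
Hba-a2: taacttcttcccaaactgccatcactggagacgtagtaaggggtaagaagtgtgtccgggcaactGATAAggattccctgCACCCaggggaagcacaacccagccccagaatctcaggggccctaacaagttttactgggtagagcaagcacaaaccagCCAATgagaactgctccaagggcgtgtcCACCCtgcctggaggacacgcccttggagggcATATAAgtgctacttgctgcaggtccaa
Hbb-bt: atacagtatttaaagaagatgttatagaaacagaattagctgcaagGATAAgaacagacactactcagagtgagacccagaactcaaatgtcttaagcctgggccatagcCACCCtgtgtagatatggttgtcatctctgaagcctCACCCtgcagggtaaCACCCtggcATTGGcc
Alas2: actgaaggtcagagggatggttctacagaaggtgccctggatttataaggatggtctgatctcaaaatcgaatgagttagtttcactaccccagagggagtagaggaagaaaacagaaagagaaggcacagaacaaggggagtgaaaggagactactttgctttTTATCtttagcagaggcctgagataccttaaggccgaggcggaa

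Over the whole 250 bases before the RefSeq start, all 4 globin promoters held each of the 4 motifs at least once, as did 0.466% of the 32851 RefSeq promoter windows of the same length. The Alas2 promoter held GATAA and CACCC and neither of the other pair. Some of these matches lie beyond the printed stretches, which end before the first annotated exon base. This holds for all 3 CACCC matches of Alas2, and for the ATATAA and some of the CCAAT matches of Hbb-bt. Taken singly, GATAA was in 22.6% of all windows, CACCC in 52.0%, CCAAT in 33.8% and ATATAA in 9.10%. The promoter entries of Hba-a1 and Hba-a2 were identical over the 297 bases they share, with a shift of 3 bases between their annotated starts. A motif match describes these letters and is not a measured binding site.

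The libraries held 16422135 to 28403218 counts on genes, with TMM factors of 0.988 to 1.01, and values below are TMM-scaled CPM (counts relative to library size) unless another scale is named. Dot1l itself, counted over the whole gene of which only exon 5 is floxed, was at 85.2, 80.2 and 85.1 CPM in Dot1l(+/+), at 84.2, 60.6 and 75.6 CPM in Dot1l(fl/+), and at 82.1, 73.9 and 82.9 CPM in Dot1l(fl/fl). The dopaminergic genes Th (tyrosine hydroxylase) and Slc6a3 (the dopamine transporter) were present in each library, at 44.5 to 84.3 and 92.9 to 166 CPM. The 4 adult globins together summed to 96.9 to 272 CPM, with the highest and the lowest library both in Dot1l(+/+). With edgeR's quasi-likelihood test and genotype as the only factor, no gene passed an adjusted p-value of 0.05 in any of the 3 comparisons. In the same fit, 1483, 694 and 1145 of 17671 genes (8.39, 3.93 and 6.48%) had an unadjusted p-value under 0.05. This order of comparisons, Dot1l(fl/+) against Dot1l(+/+), Dot1l(fl/fl) against Dot1l(+/+) and Dot1l(fl/fl) against Dot1l(fl/+), is kept below. DESeq2 called 7, 4 and 12 genes, none of them one of the 5, and 0, 4 and 4 of them were on the marker lists. These were Th, Slc6a3, Slc18a2 and Ddc, and then Th, Slc6a3, Ttr and Folr1, all lower in Dot1l(fl/fl). Per the methods of the study, the animals were taken as sets of the 3 genotypes from 1 nest, but the labels do not tie a pool to a nest, and p-values measure the spread between these pools.

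Hbb-bs (ENSMUSG00000052305), the major adult β-globin gene of this strain, lies on chromosome 7 at 103826534 to 103828096 (GRCm38, minus strand). It was at 134, 82.3 and 44.7 CPM in the Dot1l(+/+) pools, 76.6, 52.2 and 77.8 CPM in the Dot1l(fl/+) pools, and 99.3, 108 and 70.5 CPM in the Dot1l(fl/fl) pools. Hbb-bt (ENSMUSG00000073940), its neighbor at 103812524 to 103813996, was at 24.2, 15.2 and 8.53 CPM, then 14.8, 10.5 and 14.4 CPM, and then 16.6, 22.9 and 12.4 CPM. For both genes the first and the third Dot1l(+/+) pool were the highest and the lowest of all 9 libraries, and the values of the genotypes overlapped.

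Hba-a1 (ENSMUSG00000069919), an adult α-globin gene on chromosome 11 at 32283511 to 32284465 (plus strand), was at 69.0, 55.5 and 36.2 CPM in Dot1l(+/+), 49.4, 34.2 and 32.2 CPM in Dot1l(fl/+), and 66.7, 64.3 and 50.9 CPM in Dot1l(fl/fl). Its Dot1l(fl/fl) pools were all above its Dot1l(fl/+) pools, and both overlapped with Dot1l(+/+). Hba-a2 (ENSMUSG00000069917), the second α-globin gene at 32296489 to 32297298, was at 45.5, 13.0 and 7.44 CPM in Dot1l(+/+), 25.1, 8.09 and 23.3 CPM in Dot1l(fl/+), and 15.4, 15.8 and 12.4 CPM in Dot1l(fl/fl). Its Dot1l(fl/fl) pools were close to each other, while the other genotypes each held high and low pools.

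Alas2 (ENSMUSG00000025270), the erythroid 5-aminolevulinate synthase on chromosome X at 150547375 to 150570638 (plus strand), was at 7.85, 5.41 and 2.48 CPM in Dot1l(+/+), 6.27, 2.86 and 4.69 CPM in Dot1l(fl/+), and 5.60, 6.17 and 4.37 CPM in Dot1l(fl/fl). These values rest on 66 to 166 counts per library. As for the β-globins, the first and the third Dot1l(+/+) pools were the extremes of the 9 libraries.

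**Figure D1:**
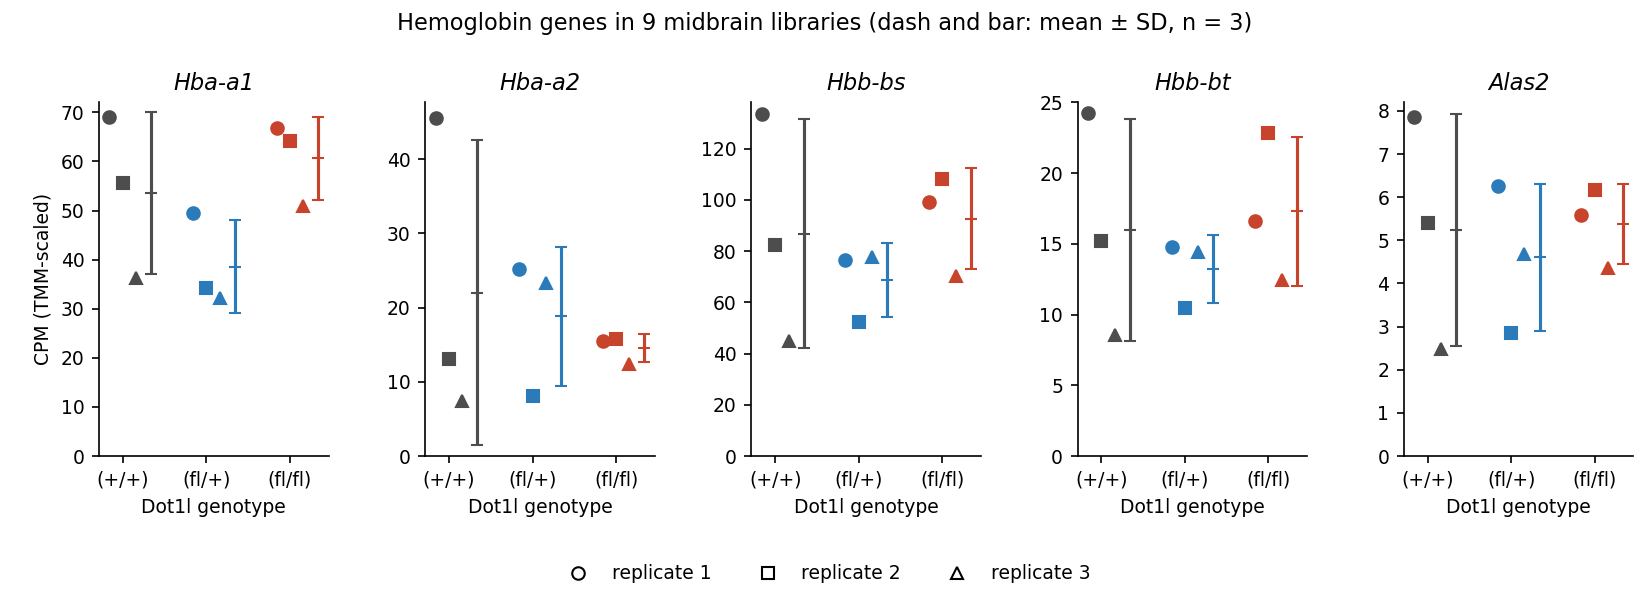
Level of each hemoglobin gene in each library, in CPM from 0, by Dot1l genotype. Marker shapes give the replicate, and the dash with its bar gives the mean ± SD of 3 pools. In Hbb-bs, Hbb-bt and Alas2 the first Dot1l(+/+) pool is the highest and the third the lowest of all libraries, at 134 and 44.7 CPM for Hbb-bs.

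Per kilobase of exon, Hbb-bs had the highest level of the 5 genes, with a median of 101 CPM per kb over the 9 libraries (range 58.3 to 174). Hba-a1 followed at 62.7 CPM per kb (39.6 to 85.0) and was below Hbb-bs in each of the 9 libraries. Hba-a2 at 23.1 CPM per kb (11.2 to 68.2) and Hbb-bt at 21.0 CPM per kb (12.1 to 34.4) were lower than Hba-a1 in each library and did not differ from each other beyond their spread. Alas2 was the lowest at 2.25 CPM per kb (1.03 to 3.27). The order within the α pair and within the β pair may depend on how reads that match both copies were assigned, which is not given in the sources used here. Other ways of assigning them were not tested.

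How far the copies can be told apart was read from the GENCODE M21 transcripts. The spliced Hba-a1 and Hba-a2 transcripts could be aligned over 538 bases without a gap and differed there at 1 base, within the coding part of exon 3. Beyond this alignment, Hba-a1 had 161 bases at its 5′ end and Hba-a2 16 bases at its 3′ end in the annotation. Of all 75-base windows of the Hba-a2 transcript, 81.0% were also present in Hba-a1, and 62.2% the other way. The site that differs is shown for both genes, with the base that differs in capitals, at chr11:32284329-32284357 for Hba-a1 and at chr11:32297146-32297174 for Hba-a2.
Hba-a1: catgcctctctggaCaaattccttgcctc
Hba-a2: catgcctctctggaTaaattccttgcctc

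The Hbb-bs and Hbb-bt transcripts also differed at 1 of 441 aligned coding bases, again in exon 3, and they differed at 27 of 580 aligned bases in all, mostly outside the coding part. Of the 75-base windows, 64.3% of those of Hbb-bs were present in Hbb-bt and 56.6% the other way. The coding site is at chr7:103826678-103826706 for Hbb-bs and at chr7:103812669-103812697 for Hbb-bt, both on the minus strand and shown along the transcript.
Hbb-bs: gtggctggagtggcCgctgccctggctca
Hbb-bt: gtggctggagtggcTgctgccctggctca

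The 2 copy pairs behaved differently between libraries. Hbb-bt held 14.3 to 17.4% of the β-globin counts in the 9 libraries, with a chi-square per degree of freedom of 1.77, where counting alone gives a value near 1. Hba-a2 held 17.1 to 19.8% of the α-globin counts in 6 libraries and 33.7 to 42.0% in the other 3, with a chi-square per degree of freedom of 89.6. The 3 libraries with the high share were the first Dot1l(+/+) pool with 39.7% (95% Wilson interval 37.8 to 41.7%), the first Dot1l(fl/+) pool with 33.7% (31.6 to 35.9%) and the third Dot1l(fl/+) pool with 42.0% (39.5 to 44.6%). No interval of the other 6 libraries reached above 22.2%. These intervals cover counting error only, since reads without molecular identifiers are not independent molecules.

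All 3 Dot1l(fl/fl) pools were among the libraries with a low share, at 18.8, 19.8 and 19.6%. The log2 ratio of Hba-a2 to Hba-a1 counts was -2.06 on average in Dot1l(fl/fl), -1.17 in Dot1l(fl/+) and -1.66 in Dot1l(+/+), and none of the 3 comparisons between genotypes was called (exact two-sided permutation tests of 3 against 3 pools, p = 0.3 for Dot1l(fl/fl) against Dot1l(fl/+), 0.9 for Dot1l(fl/fl) against Dot1l(+/+) and 0.5 for Dot1l(fl/+) against Dot1l(+/+), where the smallest possible p is 0.1). When the copies were added up, the α chains held 37.6 to 45.0% of the adult globin counts. The 3 libraries with a high Hba-a2 share were at 42.0, 44.9 and 37.6%, the last of which was the lowest of all 9.

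**Figure D2:**
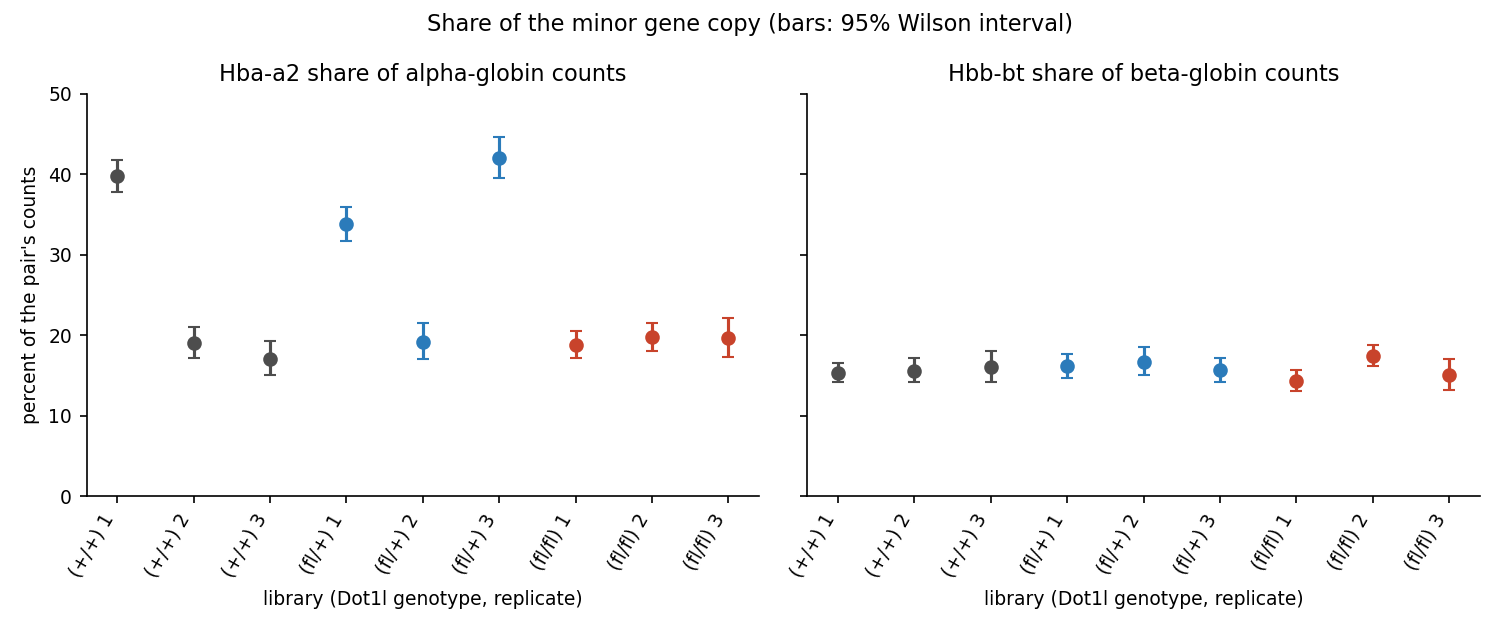
Share of the minor copy in the counts of each globin pair, in percent, for each library. Points are colored by genotype and bars are 95% Wilson intervals. On the left, 3 libraries have Hba-a2 shares of 33.7 to 42.0% and the other 6 lie at 17.1 to 19.8%, whereas on the right all Hbb-bt shares are between 14.3 and 17.4%.

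The comparison of genotypes asked whether hemoglobin transcripts changed with the loss of 1 or both Dot1l alleles in dopaminergic neurons. With 1 floxed allele all 5 genes had lower means than in Dot1l(+/+), and none was called. The largest difference was in Hba-a1, with a log2 fold change of -0.47 ± 0.20 (SE; edgeR, unadjusted p = 0.0354, adjusted p = 0.568). Thus 1 of the 5 genes had an unadjusted p-value under 0.05 in the lower direction, where 4.09% of all genes did. The log2 fold change was -0.33 ± 0.29 for Hbb-bs, -0.27 ± 0.30 for Hbb-bt, -0.21 ± 0.51 for Hba-a2 and -0.17 ± 0.34 for Alas2. Their median over the 4 globins was -0.30, beside -0.0034 over all genes tested. Without the first Dot1l(+/+) pool, the log2 fold change was 0.12 for Hbb-bs, 0.16 for Hbb-bt, 0.89 for Hba-a2 and 0.23 for Alas2, so these 4 changed direction, and it was -0.24 for Hba-a1. Hba-a2 and Alas2 also changed direction without the second Dot1l(fl/+) pool, to 0.16 and 0.08.

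With both alleles floxed, none of the 5 genes was called against Dot1l(+/+). The log2 fold change was 0.10 ± 0.29 for Hbb-bs, 0.13 ± 0.29 for Hbb-bt, 0.19 ± 0.20 for Hba-a1 and 0.07 ± 0.34 for Alas2. Hba-a2 was the only one of the 5 with a lower estimate, at -0.57 ± 0.52. All 5 had an adjusted p-value of 0.999 and none had an unadjusted p-value under 0.05, beside 3.93% of all genes. The direction of each of the 5 estimates depended on the pools used. Without the third Dot1l(+/+) pool the log2 fold change was -0.21 for Hbb-bs, -0.18 for Hbb-bt, -0.034 for Hba-a1 and -0.29 for Alas2. Without the first Dot1l(+/+) pool it was 0.52 for Hba-a2 and 0.55 for Hbb-bs. Without the second Dot1l(fl/fl) pool it was -0.023 for Hbb-bs, -0.12 for Hbb-bt and -0.043 for Alas2.

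Between the floxed genotypes, Hba-a1 was higher in Dot1l(fl/fl) (60.6 ± 8.52 CPM) than in Dot1l(fl/+) (38.6 ± 9.42 CPM), a log2 fold change of 0.66 ± 0.20 (edgeR, unadjusted p = 0.00582, adjusted p = 0.641). It was 1 of 5 with an unadjusted p-value under 0.05, where 3.6% of all genes had one in the higher direction. It was also the only one of the 5 whose libraries did not overlap, as was the case for 5.98% of all genes in this direction. The log2 fold change was 0.43 ± 0.29 for Hbb-bs, 0.40 ± 0.29 for Hbb-bt, 0.24 ± 0.34 for Alas2 and -0.36 ± 0.52 for Hba-a2. Without the second Dot1l(fl/+) pool it was 0.27 for Hbb-bs, 0.26 for Hbb-bt, -0.011 for Alas2 and -0.73 for Hba-a2. It was -0.096 for Hba-a2 without the first Dot1l(fl/+) pool and -0.18 without the third, and 0.15 for Hbb-bt without the second Dot1l(fl/fl) pool. The comparisons share libraries and are not independent of one another.

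The Hba-a1 result did not hold for the α-globin pair. With Hba-a1 and Hba-a2 counts added up, the log2 fold change of Dot1l(fl/fl) against Dot1l(fl/+) was 0.39 ± 0.27 (edgeR, unadjusted p = 0.166), beside 0.43 ± 0.29 for the summed β-globins (edgeR, unadjusted p = 0.16). For Dot1l(fl/+) against Dot1l(+/+) the summed α-globins were at -0.39 ± 0.27 and the summed β-globins at -0.32 ± 0.29 (edgeR, unadjusted p = 0.171 and 0.287). For Dot1l(fl/fl) against Dot1l(+/+) they were at 0.0048 ± 0.27 and 0.11 ± 0.29 (edgeR, unadjusted p = 0.986 and 0.711). Summing therefore brought both chains to similar estimates in each comparison, and none was called. Without a filter on low counts, the same test over 28316 genes gave Hba-a1 an adjusted p of 1.57e-13 in Dot1l(fl/fl) against Dot1l(fl/+) and called 2, 1 and 2 of the 5 genes in the 3 comparisons, beside 0.886, 0.417 and 0.579% of all genes in that fit. The cause of this was not tested.

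**Figure D3:**
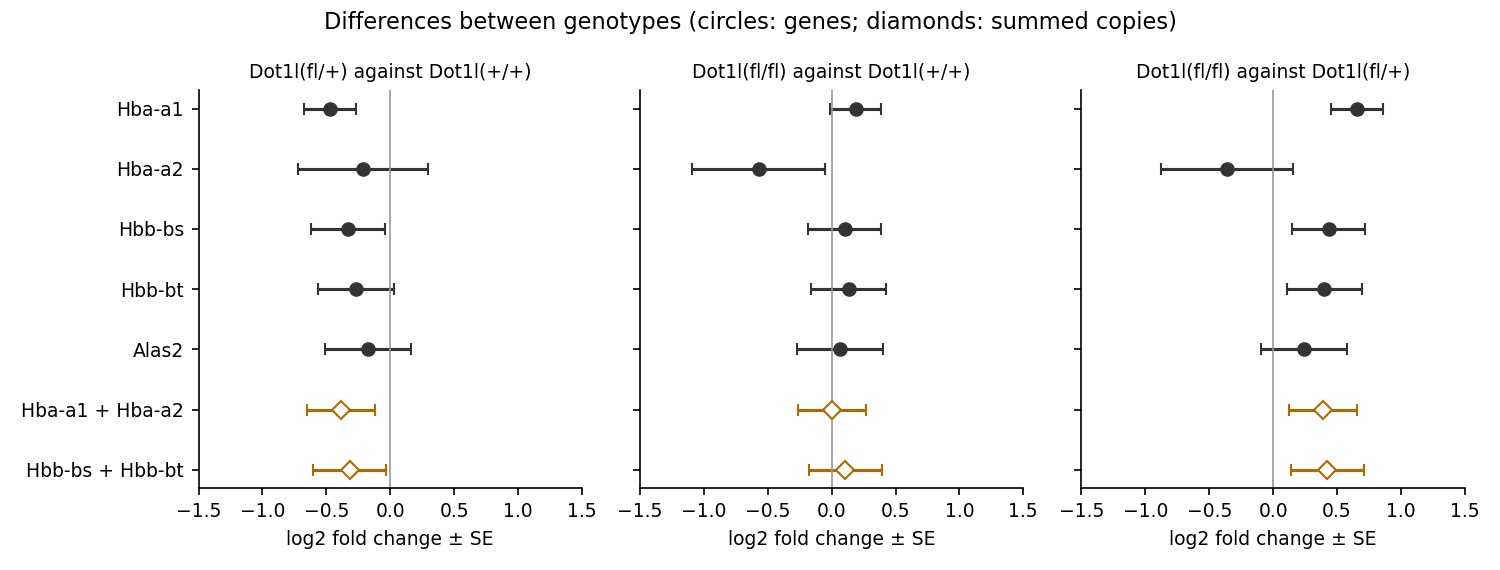
Log2 fold changes ± SE from edgeR for the 5 genes (circles) and for the summed copies of each pair (open diamonds) in the 3 comparisons of genotypes. Hba-a1 lies at 0.66 on the right, while the α-globin sum lies at 0.39 with the β-globin sum at 0.43.

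Hbb-bs, Hbb-bt and Alas2 varied together from library to library. Over the 9 libraries, log2 CPM of Hbb-bs and Hbb-bt had a Pearson r of 0.98 and a Spearman rho of 0.98 (exact permutation, p = 0.000579 and 0.000496, adjusted over 10 pairs of genes). For Hbb-bs and Alas2, r was 0.94 and rho 0.83 (exact permutation, adjusted p = 0.00112 and 0.0165), and for Hbb-bt and Alas2, r was 0.93 and rho 0.90 (exact permutation, adjusted p = 0.0018 and 0.00676). Alas2 lies on another chromosome than the globin genes. These relations did not rest on the extreme pools alone, as without the first and the third Dot1l(+/+) pools r was 0.95, 0.86 and 0.82 (exact permutation, unadjusted p = 0.00417, 0.0125 and 0.0321).

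Hba-a1 followed with somewhat wider scatter. Its r was 0.82 with Hbb-bs, 0.78 with Hbb-bt and 0.78 with Alas2 (exact permutation, adjusted p = 0.013, 0.0152 and 0.0152), and its rho was 0.78, 0.83 and 0.68 (exact permutation, adjusted p = 0.0287, 0.0165 and 0.0559). The third Dot1l(fl/+) pool had the lowest Hba-a1 level of all libraries and the highest Hba-a2 share. Without the second and the third Dot1l(fl/+) pools, which were farthest from the median of Hba-a1, r was 0.97, 0.93 and 0.87 (exact permutation, unadjusted p = 0.000794, 0.00278 and 0.0175). No r is given for the 4 pairs with Hba-a2, over all libraries or within genotypes, since its share of the α-globin counts set 3 libraries of 2 genotypes apart.

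Within genotypes, the relations among Hbb-bs, Hbb-bt and Alas2 passed the test, and for Hba-a1 only that with Alas2 did so by r and none by rho. After subtraction of each genotype's mean, r was 0.98 for Hbb-bs and Hbb-bt, 0.95 for Hbb-bs and Alas2, and 0.92 for Hbb-bt and Alas2 (exact permutation within genotypes, adjusted p = 0.0185 for each). For Hba-a1 it was 0.90 with Alas2, 0.84 with Hbb-bs and 0.83 with Hbb-bt (exact permutation within genotypes, adjusted p = 0.0397, 0.0823 and 0.0637). Its rho was 0.82, 0.65 and 0.75 (exact permutation within genotypes, adjusted p = 0.0728, 0.157 and 0.104), and for the other 3 pairs rho was 0.95, 0.88 and 0.95 (exact permutation within genotypes, adjusted p = 0.0231, 0.0463 and 0.0231). The ratio of Alas2 counts to adult globin counts had a 1.48-fold range, while the globin total itself varied 2.81-fold between libraries. The ratio of α to β counts ranged from 0.602 to 0.819.

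**Figure D4:**
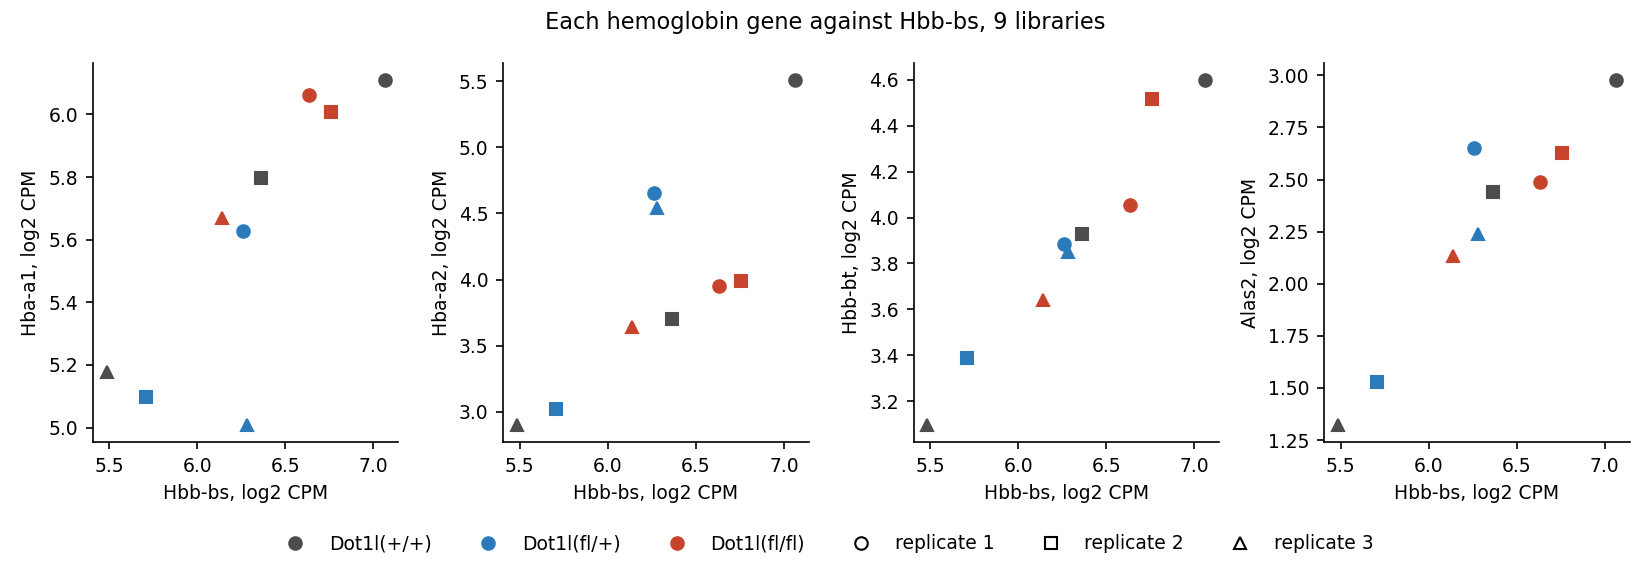
Log2 CPM of Hba-a1, Hba-a2, Hbb-bt and Alas2 against log2 CPM of Hbb-bs, 1 point per library, colored by genotype with the replicate as marker shape. Hbb-bt and Alas2 rise with Hbb-bs (r = 0.98 and 0.94), and in the Hba-a2 panel the first Dot1l(+/+) and the first and the third Dot1l(fl/+) pools stand above the other 6 libraries.

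Pools of the same genotype differed more in these genes than in most others. The SD of log2 CPM between pools of 1 genotype was 0.94 for Hba-a2, which was rank 168 of 17671 genes, 0.61 for Alas2 (rank 772), 0.53 for Hbb-bs (rank 1108), 0.53 for Hbb-bt (rank 1110) and 0.36 for Hba-a1 (rank 2579). The median of all genes was 0.13. As low counts vary more, each gene was also set beside genes within 0.5 log2 units of its own mean level. Hbb-bs and Hba-a2 were then rank 3 of 2306 and rank 3 of 2368 genes, Hbb-bt was rank 8 of 2317, Hba-a1 rank 15 of 2591 and Alas2 rank 14 of 1473. Of the genotypes, Dot1l(+/+) had the widest range of the globin total, 2.81-fold, against 1.58-fold in Dot1l(fl/+) and 1.44-fold in Dot1l(fl/fl). These differences in range were not tested.

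**Figure D5:**
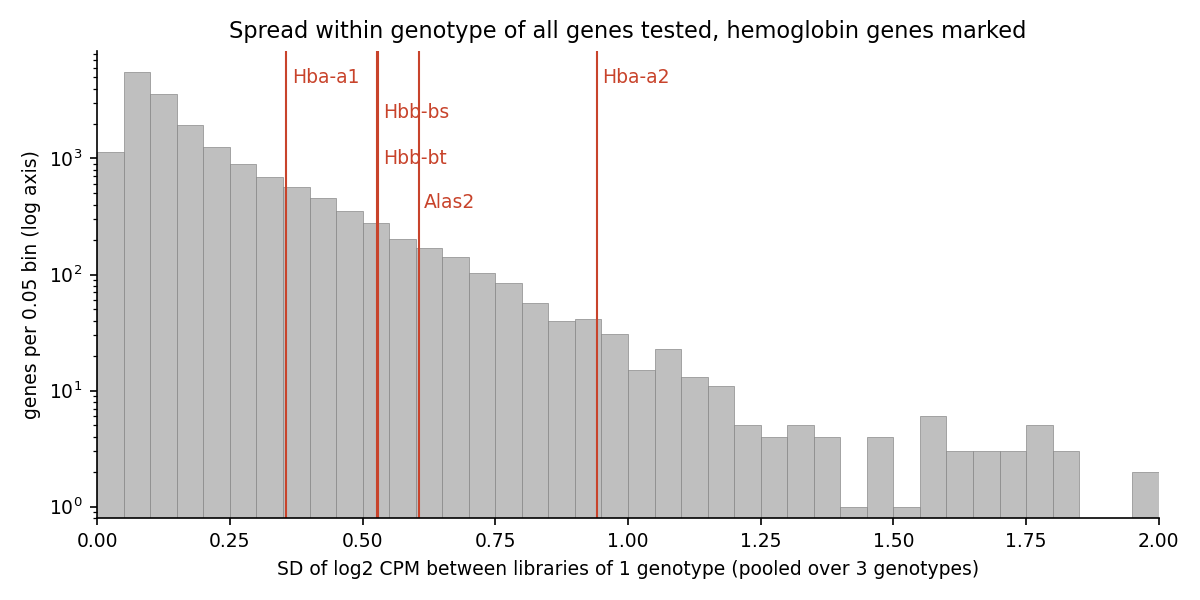
Number of genes (log axis) by the SD of log2 CPM between libraries of 1 genotype, pooled over the 3 genotypes, for 17671 genes. The axis ends at an SD of 2, and red lines mark the hemoglobin genes, from 0.36 for Hba-a1 to 0.94 for Hba-a2, right of the median of 0.13.

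Genes that mark red cells by other proteins were close to absent. Of 16 red cell markers 15 were matched, and their counts summed to 40 to 71 per library, which was 2.36 to 2.84 CPM in Dot1l(+/+), 2.21 to 2.78 CPM in Dot1l(fl/+) and 2.43 to 2.81 CPM in Dot1l(fl/fl), beside 2411 to 5760 adult globin counts. Slc4a1, the anion exchanger of the red cell membrane, had 1 to 8 counts per library. Rhag had 0 or 1 count, and Cldn13 none in any library. These 3 genes are named after their values were seen. Only 4 markers passed the filter on low counts, and the mean log2 CPM of these 4 had r = -0.37 and rho = -0.32 with Hbb-bs over the 9 libraries (exact permutation, unadjusted p = 0.328 and 0.41). These 4 had 1 to 22 counts per library, and what relation could be detected at these counts was not tested.

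Of the transcription factors of the red cell lineage, Gata1 and Gfi1b were at 0 counts in all libraries, Klf1 had 0 to 10, and Nfe2 0 to 4. Factors of the same complexes that brain and vessels also use were measured, with Ldb1 at 60.9 to 66.6 CPM, and none of the 6 that passed the filter had an unadjusted p-value under 0.05 in any comparison. Markers of other blood cells were low as well. Lymphocyte markers summed to 17 to 40 counts, platelet markers to 129 to 247 and neutrophil markers to 144 to 278 per library. The neutrophil sums were mostly Csf3r (91 to 206 counts) and Mmp9 (32 to 63), while S100a8 had 0 to 6 and S100a9 1 to 5. The platelet sums were mostly Gp1bb (56 to 108), Itga2b (29 to 82) and Gp5 (17 to 46). Of the platelet markers 4 passed the filter, and in Dot1l(fl/fl) against Dot1l(+/+) 3 had a higher and 1 a lower estimate, with a median log2 fold change of 0.05. The 1 lower gene, Itga2b, an integrin of platelets, was at 1.51 CPM in Dot1l(fl/fl), 2.15 CPM in Dot1l(+/+) and 2.42 CPM in Dot1l(fl/+), and was not called, with log2 fold changes of -0.53 ± 0.24 and -0.69 ± 0.23 (edgeR, adjusted p = 0.999 and 0.712).

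The embryonic globins Hba-x, Hbb-bh1 and Hbb-bh2 were at 0 counts in all libraries and Hbb-y had 0 to 2. Cygb (cytoglobin), a globin of fibroblasts and some neurons, was at 74.8 to 84.5 CPM. Ngb (neuroglobin), a globin of neurons, was at 13.9, 9.08 and 13.7 CPM in Dot1l(fl/+) and at 9.02 to 9.39 CPM in Dot1l(+/+), a log2 fold change of 0.41 ± 0.16 (edgeR, unadjusted p = 0.0206, adjusted p = 0.541). In Dot1l(fl/fl) it was at 9.04, 9.25 and 11.7 CPM, with overlap to both.

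The list of heme synthesis holds the steps that all cells share. Its 14 genes, from Alas1, the housekeeping 5-aminolevulinate synthase, to Fech, which inserts the iron, summed to 554 to 577 CPM in the 9 libraries. Their mean log2 CPM had r = -0.04 and rho = -0.18 with Hbb-bs (exact permutation, unadjusted p = 0.922 and 0.644). Their median log2 fold change was 0.02 in each of the 3 comparisons. Slc25a39, a mitochondrial carrier, was the 1 gene of the list with an unadjusted p-value under 0.05. It was higher in Dot1l(fl/+) than in Dot1l(+/+) by 0.13 ± 0.06 and lower in Dot1l(fl/fl) than in Dot1l(fl/+), at -0.13 ± 0.06 on the log2 scale (edgeR, adjusted p = 0.568 and 0.751).

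Of the genes of heme and hemoglobin clearance, 1, 1 and 0 of 9 tested had an unadjusted p-value under 0.05 in the 3 comparisons, and of those of iron handling 3, 1 and 0 of 11, beside 8.39, 3.93 and 6.48% of all genes. None was called by edgeR. Hmox1, the inducible heme oxygenase, was at 5.36, 4.55 and 4.19 CPM in Dot1l(fl/fl) and 3.83, 3.48 and 3.98 in Dot1l(+/+), a log2 fold change of 0.33 ± 0.14 (edgeR, unadjusted p = 0.0382, adjusted p = 0.999). The heme transporter gene Slc48a1 was higher by 0.14 ± 0.05 in Dot1l(fl/+) than in Dot1l(+/+) (edgeR, unadjusted p = 0.0165, adjusted p = 0.541). Haptoglobin (Hp) and hemopexin (Hpx), the plasma proteins that bind hemoglobin and heme, had at most 9 and 10 counts per library.

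Among 11 genes of iron handling, the ferritin heavy chain gene Fth1 had the most counts, at 1232 to 1517 CPM. The ferritin light chain gene Ftl1 was at 1.47 to 5.10 CPM and was higher in Dot1l(fl/fl) than in Dot1l(+/+), with a log2 fold change of 0.94 ± 0.25 (edgeR, unadjusted p = 0.00211, adjusted p = 0.999) and no overlap of the pools. Ftl1 has many near-identical processed copies in the mouse genome, so its counts are uncertain. Ireb2 (iron regulatory protein) and Tfrc (transferrin receptor) were lower in Dot1l(fl/+) than in Dot1l(+/+), by -0.13 ± 0.05 each (edgeR, adjusted p = 0.541 for both).

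The 16 endothelial markers summed to 581 to 632 CPM, none had an unadjusted p-value under 0.05 in any comparison, and their mean had r = 0.13 and rho = 0.30 with Hbb-bs (exact permutation, unadjusted p = 0.73 and 0.437). The choroid plexus markers moved most between libraries. They summed to 58.0 to 66.3 CPM in Dot1l(fl/fl), 86.0 to 184 CPM in Dot1l(+/+) and 143 to 647 CPM in Dot1l(fl/+). All 9 were lower in Dot1l(fl/fl) than in Dot1l(fl/+) at an unadjusted p-value under 0.05, beside 2.87% of all genes in this direction. With genotype as the only factor edgeR called none over the 9 libraries, and with the replicate number as a second factor it called Ttr and Clic6. DESeq2 called Ttr and Folr1 of this list, and edgeR called Ttr without the first, the second or the third Dot1l(fl/+) pool (adjusted p = 0.0353, 0.0237 and 0.0284). Ttr, transthyretin, was at 505 CPM in the third Dot1l(fl/+) pool and at 13.4 to 19.2 CPM in Dot1l(fl/fl). The mean of this list had r = -0.23 and rho = -0.27 with Hbb-bs (exact permutation, unadjusted p = 0.553 and 0.493), and its part in the globin values was not tested further.

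Hbb-bs was set against 15 marker and pathway lists with at least 3 measured genes and against library total, mitochondrial percent and the rRNA-like gene Gm42418, 18 relations in all. None had an unadjusted p-value under 0.05 over the 9 libraries, and the lowest adjusted value was 0.878 (exact permutation). The strongest was with the platelet markers, of which 4 genes were measured, with r = -0.51 and rho = -0.68 (exact permutation, unadjusted p = 0.156 and 0.0503). With the mean of the 4 globins, which includes Hba-a2, the rho of this list was -0.82 and was not tested. For the library total r was -0.29 and rho -0.55, and for the mitochondrial percent they were -0.25 and -0.12 (exact permutation, unadjusted p = 0.453, 0.133, 0.511 and 0.776). After subtraction of genotype means, the oligodendrocyte markers had r = 0.65 (exact permutation, unadjusted p = 0.0417, adjusted p = 0.75). Of the 13 dopaminergic markers, 10 were lower in Dot1l(fl/fl) than in Dot1l(+/+) at an unadjusted p-value under 0.05, beside 1.72% of all genes in this direction. At an adjusted p-value under 0.05, edgeR with genotype as the only factor called none of them over the 9 libraries. It called Th, Slc6a3 and Slc18a2 with 2 genotypes only or without the second or the third Dot1l(fl/+) pool. The same 3 genes were called over the 9 libraries with the replicate number as a second factor. DESeq2 called these 3 and Ddc. For the dopaminergic markers r with Hbb-bs was -0.15 over all libraries and 0.21 within genotypes (exact permutation, unadjusted p = 0.701 and 0.509).

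The genes outside the 5 whose log2 CPM, with genotype means subtracted, was most like the mean of the 4 globins were Pacsin1 (r = 0.97), Polr3b, Gm8995, Lgr5, Wiz, Cyb5rl, Matk, Aqr, Zfp777 and Uba1 (r = 0.93), among 15432 genes with at least 1 CPM. The SD within genotype was 0.04 for Pacsin1, a neuronal gene at 398 to 433 CPM, and 0.31 at most, for Cyb5rl. Over 0.9, 29 genes had such an r, and 28 genes had one under -0.9. The mean includes Hba-a2, so the 3 libraries with a high Hba-a2 share enter these r values. These genes were picked from many for their r over 9 libraries, and the values carry no test.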

How the data were processed

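RNA from dissected midbrain was sequenced in 9 libraries. The authors made directional libraries (NEBNext Ultra), and their processing notes name bcl2fastq 2.17, Trimmomatic 0.30, GRCm38.p4 and DESeq2 1.10.1. The deposited counts are raw reads per Ensembl gene, whereas the aligner, the counter, the annotation release and the treatment of reads that match several genes are not given in the sources used here. The authors' 3 deposited comparison tables hold a mean of normalized counts, log2 fold changes, Wald scores and p-values, and were not used.

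Genes were named with GENCODE M21. Counts were filtered with filterByExpr (17671 genes left) and tested jointly over the 9 libraries, with genotype as the factor (R 4.3.3, edgeR 4.0.16 quasi-likelihood, TMM, Benjamini-Hochberg adjustment). CPM are TMM-scaled, and log2 CPM used a prior count of 0.5. Correlations were tested by exact permutation (scipy 1.17.1) of all 362880 pairings, or of the 216 within genotypes. Relations with marker lists were tested for Hbb-bs alone and not for the globin mean, a choice made after seeing the data. The genes named were taken from the 5 genes, Dot1l, Th, Slc6a3, from each list the gene with the most counts and up to 2 with the smallest unadjusted p-values, and the 10 genes most like the globin mean, and other genes were named after their values were seen. The 5 genes and the lists were chosen with earlier results of these data known. Replicates differed by 4.34 to 16.3 times counting variance, so none was a repeat of another. On simulated counts for Dot1l(fl/fl) against Dot1l(+/+) the test recovered 57% of 200 genes changed by 0.5 on the log2 scale (17488 genes) and 93% at 1 (17486 genes). The changed genes were drawn at random from expressed genes, each with its own dispersion. Over all genes the median SD within genotype was 0.13, against 0.36 to 0.94 for the hemoglobin genes. Recovery at that wider spread was not simulated separately, so these percentages do not apply to the 5 genes.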

Additional observations from a re-analysis of the deposited data

How the results depend on the processing

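With 3 pools per genotype and a within-genotype SD of 0.36 to 0.94 on the log2 scale the hemoglobin genes allow weak statements on genotype only. The counts of the 5 genes at an adjusted p-value under 0.05 (0 in each comparison) became 2, 1 and 2 without the filter on low counts, in the order Dot1l(fl/+) against Dot1l(+/+), Dot1l(fl/fl) against Dot1l(+/+) and Dot1l(fl/fl) against Dot1l(fl/+), and 1 in the last with a length and GC offset and the replicate block. Over all genes, these fits called 251, 118 and 164 of 28316 (0.886, 0.417 and 0.579%), and 4 of 17606 in the last. Those at an unadjusted p-value under 0.05 (1, 0 and 1) became 3, 2 and 4 without the filter (7.61, 4.27 and 6.34% of all genes), 0 in the first with DESeq2 1.42.0 (6.83%), 0 in the first and 0 in the last with copies summed (8.4 and 6.47%), and 2 in the last with 2 genotypes only (5.32%). Leaving out 1 library each time gave 0 to 3, 0 to 1 and 1 to 2 of the 5 genes. In those fits 5.42 to 12.6%, 2.09 to 5.28% and 4.92 to 9.81% of all genes had an unadjusted p-value under 0.05. Of the listed genes, 11, 10 and 13 were called without the filter, 0, 3 and 2 with the replicate block, with or without the offset, 0, 4 and 4 with DESeq2, 4 in the second comparison with 2 genotypes only, and 0, 0 to 4 and 0 to 3 when leaving out 1 library each time, and 39 of the listed genes had an unadjusted p-value under 0.05 in the last comparison without the filter, against 23. Leaving out 1 library each time, the listed genes at an unadjusted p-value under 0.05 numbered 11 to 36, 11 to 24 and 18 to 37. The cause was not tested. Over all genes, edgeR called 0 in each comparison, 0, 3 and 3 with the replicate block, 0, 3 and 4 with block and offset, 1, 4 and 0 with 2 genotypes only, and 0 to 2, 0 to 4 and 0 to 6 when leaving out 1 library each time, and DESeq2 called 7, 4 and 12. With copies summed, where Hba-a2 takes the value of the α pair, its log2 fold change turned to 0.0048 in Dot1l(fl/fl) against Dot1l(+/+) and 0.39 in Dot1l(fl/fl) against Dot1l(fl/+).

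Leaving out 1 library each time, the log2 fold change of Dot1l(fl/+) against Dot1l(+/+) ranged from -0.69 to -0.24 for Hba-a1, -0.63 to 0.89 for Hba-a2, -0.65 to 0.12 for Hbb-bs, -0.58 to 0.16 for Hbb-bt and -0.53 to 0.23 for Alas2. For Dot1l(fl/fl) against Dot1l(+/+) it ranged from -0.034 to 0.41 for Hba-a1, -0.99 to 0.52 for Hba-a2, -0.21 to 0.55 for Hbb-bs, -0.18 to 0.56 for Hbb-bt and -0.29 to 0.47 for Alas2. For Dot1l(fl/fl) against Dot1l(fl/+) it ranged from -0.011 to 0.53 for Alas2, 0.54 to 0.87 for Hba-a1, -0.73 to -0.096 for Hba-a2, 0.27 to 0.59 for Hbb-bs and 0.15 to 0.58 for Hbb-bt. Most alternatives for the listed genes were added after seeing the data. The r of the 6 pairs without Hba-a2 kept its sign and an unadjusted exact permutation p under 0.05 under all 11 alternatives, from 0.71 (Hba-a1 and Alas2) to 0.99 (Hbb-bs and Hbb-bt). Subtraction of genotype means was not one of these 11. In that form the unadjusted p was 0.0741 for Hba-a1 and Hbb-bs and 0.0509 for Hba-a1 and Hbb-bt (exact permutation within genotypes). The rest of the 6 pairs stayed under 0.05.

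Libraries of different genotypes share replicate numbers, and their deviations from the genotype means correlated at 0.29 to 0.32 for number 1, 0.11 to 0.18 for number 2 and 0.02 to 0.09 for number 3, so the numbers were not taken as pairs although the methods describe sets of the 3 genotypes from 1 nest. With the replicate block, Hba-a1 had a log2 fold change of 0.66 in Dot1l(fl/fl) against Dot1l(fl/+) (edgeR, adjusted p = 0.0865), and 0.75 with the length and GC offset as well (adjusted p = 0.029). In that comparison the block also led to calls of Ttr and Clic6 of the choroid plexus list (edgeR, adjusted p = 0.0214 for both), and in Dot1l(fl/fl) against Dot1l(+/+) to calls of the dopaminergic genes Th, Slc6a3 and Slc18a2 (edgeR, adjusted p = 0.0258, 0.0258 and 0.0483). Not each library correlated best with its own number.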
